A study of Mus musculus with 8 samples.

Results

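Lipid droplet and lipolysis genes were followed through liver chromatin accessibility at 10 loci: Plin2, Plin3, Plin4, Plin5, Cidea, Cidec, G0s2, Pnpla2, Pnpla3 and Fitm2. A consensus region was taken as a member when one of these was its nearest protein-coding gene, by distance to the gene span, within 100 kb. This gave 34 of the 49587 consensus regions of the series. Of the 34, 20 lay inside or overlapped the span of their gene and 14 lay outside it, and no member region was tied between genes. The farthest was 24824 bp from its gene, and no region beyond the limit had one of the 10 as its nearest gene.

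Fasting sends fatty acids from adipose tissue to the liver, where they are esterified to triglyceride and stored in lipid droplets until lipases release them for oxidation. Perilipins coat the droplet surface and control access of lipases, CIDE proteins drive droplet fusion, and adipose triglyceride lipase (encoded by Pnpla2) starts triglyceride breakdown. Ppara encodes a nuclear receptor activated by fatty acids that binds DNA together with a retinoid X receptor, and several droplet genes are among its known targets in liver. Cpt2 encodes the inner-membrane carnitine palmitoyltransferase that long-chain fatty acids need before mitochondrial beta-oxidation.

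ATAC-seq, which reads out DNA open to a transposase, was run on flash-frozen liver of male C57BL/6 mice aged 9 weeks after a 24 h fast. There were 4 genotypes with 2 libraries each: wild type (WT), liver knockout of Cpt2 (Cpt2 L-/-), knockout of Ppara (Ppara -/-) and both together (Cpt2 L-/- ; Ppara -/-). The labels call the Ppara deletion of the double knockout whole-body, and they name neither the driver of the liver deletion nor the deleted exons. Wild type and Cpt2 knockout are called Ppara-intact below, and Ppara knockout and double knockout Ppara-null. Nothing in the labels says that the 2 libraries of a genotype came from separate mice, so the spread between them may be technical. In whole tissue, a change in the share of a cell type and a change within cells cannot be told apart.

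The Ppara-null libraries stood apart over the whole genome, which touches every result below. They held 18132 to 22715 peaks, against 28733 to 39296 in the Ppara-intact libraries. At the 11258 regions called in all 8 libraries, the median fold over local background in the authors' deposited peaks ranged from 6.37 to 7.44 without Ppara and from 9.26 to 11.3 with it. A region with no peak is one below the threshold of that list, not one shown to be closed. Lists cut to the strongest 18132 peaks of each library by −log10 p, the length of the shortest list, are called equal-number lists. A number in the peak names ran from 441 to 4717 where Ppara was intact and from 6831 to 6834 where it was deleted. What the number stands for is not given, and its difference between the sides cannot be told apart from Ppara status. Whether the number of Cpt2 knockout 2 bears on the values of that library was not tested. All 8 hepatocyte markers had a gene-end region called in all 8 libraries. Among the markers of other cells, each library called gene-end regions (within 1 kb of an end of the gene) at 0 to 1 of 6 macrophage, 0 to 1 of 5 endothelial and 0 to 2 of 5 adipocyte genes. Stellate markers were called at 1 to 3 of 5 genes in Ppara-intact and at 0 in Ppara-null libraries, and cholangiocyte markers at 2 and at 0 to 1 of 5. Clec4f, Stab2, Des, Krt19 and Adipoq had no gene-end region in any library. The part of these differences in the results below was not tested.

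Most start sites of the lipid droplet genes lay in a consensus region. RefSeq, on the build GRCm38.p6 (the assembly of mm10), gave 11 start sites for 9 of the 10 genes. Of these 11, 10 fell in a consensus region, against 47.2% of 21263 start sites of protein-coding genes. The 2 start sites of Plin5 lay in the same region. The start sites of Plin2, G0s2 and Fitm2 and the downstream one of Cidec were called in all 8 libraries, as were 28.8% of all start sites. Those of Plin3 and Pnpla2 were called in 7 libraries. At Plin4 and Plin5 the region over the start was called in 4 Ppara-intact and 1 Ppara-null libraries, and at Pnpla3 in 4 and 0. The 250 bases upstream of 6 of these start sites are shown. Plin4, Plin5 and Pnpla3 had start regions called in at most 1 Ppara-null library, and at Cidec calls differed between the 2 starts. The bases are written 5′ to 3′ on the strand of the gene. Capitals mark matches of a PPAR element (DR1), a cyclic AMP response element, the CCAAT box and the TATA box. The start of Plin2 was called in all 8 libraries, like those of G0s2 and Fitm2, which are not shown. Its window has the only DR1 match among the 11, so calls alone do not account for its display.
Plin2 (minus strand, chr4:86670060-86670309): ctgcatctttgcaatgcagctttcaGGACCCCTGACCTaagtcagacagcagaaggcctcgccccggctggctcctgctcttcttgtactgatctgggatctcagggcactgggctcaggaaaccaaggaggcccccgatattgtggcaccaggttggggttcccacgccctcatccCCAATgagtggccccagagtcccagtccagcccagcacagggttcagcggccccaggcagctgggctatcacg
Plin4 (minus strand, chr17:56109783-56110032): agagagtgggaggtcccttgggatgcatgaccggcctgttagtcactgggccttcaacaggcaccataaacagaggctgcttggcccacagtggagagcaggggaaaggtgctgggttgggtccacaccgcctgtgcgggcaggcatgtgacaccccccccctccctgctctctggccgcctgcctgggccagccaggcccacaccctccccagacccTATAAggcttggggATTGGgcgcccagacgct
Plin5 (minus strand, chr17:56117549-56117798): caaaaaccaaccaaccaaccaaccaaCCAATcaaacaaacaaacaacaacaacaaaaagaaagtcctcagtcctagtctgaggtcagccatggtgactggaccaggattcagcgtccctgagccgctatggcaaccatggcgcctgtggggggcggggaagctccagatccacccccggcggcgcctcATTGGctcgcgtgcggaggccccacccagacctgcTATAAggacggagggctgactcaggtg
Pnpla3 (plus strand, chr15:84167566-84167815): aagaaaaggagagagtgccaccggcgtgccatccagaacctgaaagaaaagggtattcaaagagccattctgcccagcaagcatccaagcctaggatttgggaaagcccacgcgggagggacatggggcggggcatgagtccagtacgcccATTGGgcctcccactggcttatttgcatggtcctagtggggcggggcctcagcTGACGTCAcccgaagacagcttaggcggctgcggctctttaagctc
Cidec upstream start (minus strand, chr6:113435761-113436010): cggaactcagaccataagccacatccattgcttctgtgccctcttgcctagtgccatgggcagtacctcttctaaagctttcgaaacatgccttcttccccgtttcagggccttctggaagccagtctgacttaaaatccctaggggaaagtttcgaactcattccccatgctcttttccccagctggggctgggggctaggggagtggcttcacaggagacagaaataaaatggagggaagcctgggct
Cidec downstream start (minus strand, chr6:113434765-113435014): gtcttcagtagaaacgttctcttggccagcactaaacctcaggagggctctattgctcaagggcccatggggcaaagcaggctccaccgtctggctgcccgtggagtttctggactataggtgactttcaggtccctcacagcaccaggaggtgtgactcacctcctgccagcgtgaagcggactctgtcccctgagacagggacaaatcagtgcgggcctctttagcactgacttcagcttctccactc

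Motifs were searched on both strands of these upstream windows and are a description of letters only; they were chosen after the sequences had been seen. The element bound by PPAR and retinoid X receptor is a direct repeat of 2 hexamers AGGTCA with 1 base between them (DR1), searched with at most 2 mismatches. Among the 11 windows of these genes it matched in that of Plin2, at positions -225 to -213 from the start with 2 mismatches, and it matched in 2.8% of 21263 windows of all protein-coding genes. This match contains a complete hexamer AGGTCA, which occurred in 12.8% of all windows and also in that of Plin5. The cyclic AMP response element TGACGTCA, in 1.92% of all windows, matched in that of Pnpla3 at positions -46 to -39. The letters TATAA, in 20.3% of all windows, matched in those of Plin4 at -32 to -28 and Plin5 at -27 to -23, and CCAAT, in 35.4%, matched in 5 of the 11 windows. The E-box CACGTG, in 6.63% of all windows, matched in none of the 11, and GGGCGG, left in lower case, matched in 7 against 42.6%.

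More of the 34 regions were called with Ppara intact than without it, as over all regions. Member regions called numbered 21 and 27 in the wild type libraries, 30 and 27 in Cpt2 knockout, 12 and 10 in Ppara knockout, and 18 and 13 in double knockout. The lowest Ppara-intact library thus called more of them than the highest Ppara-null one. As shares these were 77.2% ± 11.1 (SD, n = 4) in Ppara-intact and 39.0% ± 10.0 (SD, n = 4) in Ppara-null libraries, and over all 49587 regions 69.4% ± 8.87 and 38.9% ± 4.26 (SD, n = 4 each). In equal-number lists the member shares were 46.3% ± 2.82 and 36.8% ± 6.12 (SD, n = 4 each). They overlapped, since wild type 1, Cpt2 knockout 1 and double knockout 1 each called 15 regions. Over all regions the shares in these lists were 36.4% ± 0.0332 and 35.7% ± 0.31 (SD, n = 4 each). More Ppara-intact than Ppara-null libraries called 26 of the 34 regions (76.5%, against 66.9% of all regions), and 1 region showed the opposite (2.94%, against 7.28%). No Ppara-null library called 14 of the 34 (41.2%, against 42.3% of all regions), and all 8 libraries called 7 (20.6%, against 22.7%).

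**Figure D1:**
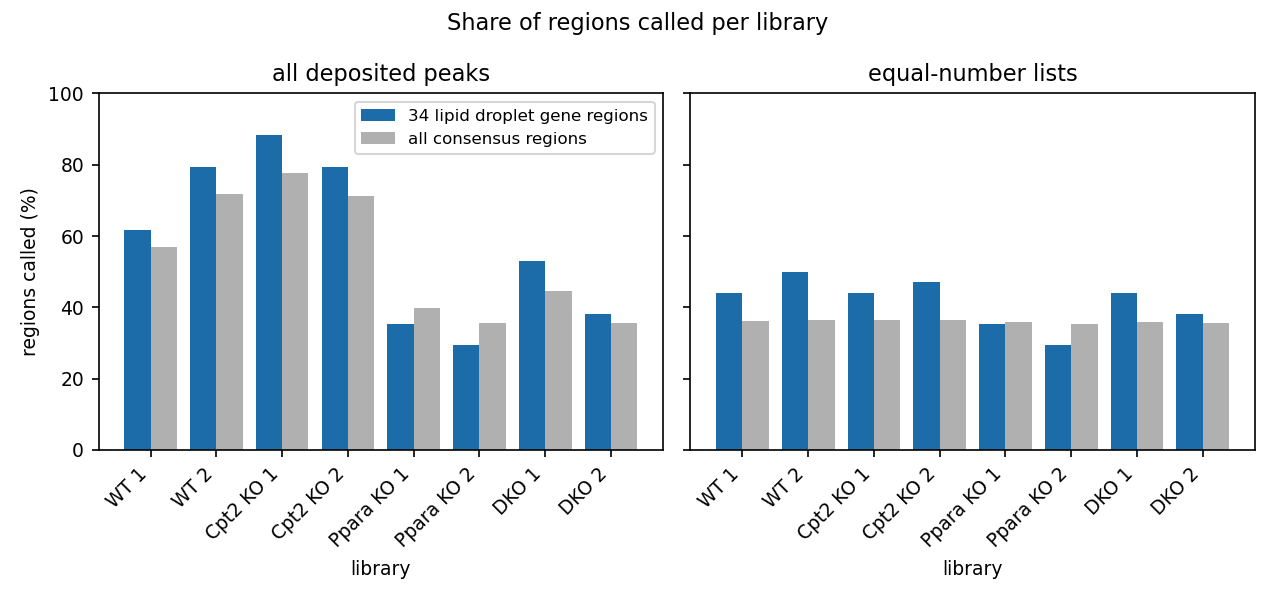
Percent of the 34 lipid droplet gene regions (blue) and of all consensus regions (grey) called in each of the 8 libraries (x axis), with all deposited peaks (left) and in equal-number lists (right). With all peaks the blue bars stand at 61.8% to 88.2% with Ppara intact and 29.4% to 52.9% without it, and the grey bars at 56.9% to 77.7% and 35.5% to 44.5%.

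By Ppara status, 3 of the 34 regions (8.82%) had a peak in each of the 4 libraries with Ppara and in none of the 4 without, against 6.82% of all regions. They lay on either side of G0s2 and at the start of Pnpla3, and no region did the reverse, against 0.0686% of all regions. For each of the 3, Fisher's exact test of calls over the 8 libraries gave the smallest p this design allows (two-sided exact p = 0.0286, Benjamini-Hochberg adjusted p = 0.32 over 38329 regions that vary). After adjustment 0 member regions and 0 regions of the whole table passed 0.05 by Fisher's exact test, while 3 member regions and 3418 in all had an unadjusted p under it. In equal-number lists 1 of the 24 member regions still called anywhere was separated (4.17%, against 1.34%), the one downstream of G0s2. Without wild type 1 the count with all peaks was 6 (11.8% of all regions were then separated in that direction), with regions at Plin2 and Plin3 added, and without double knockout 1 it was 5 (9.08% of all).

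**Figure D2:**
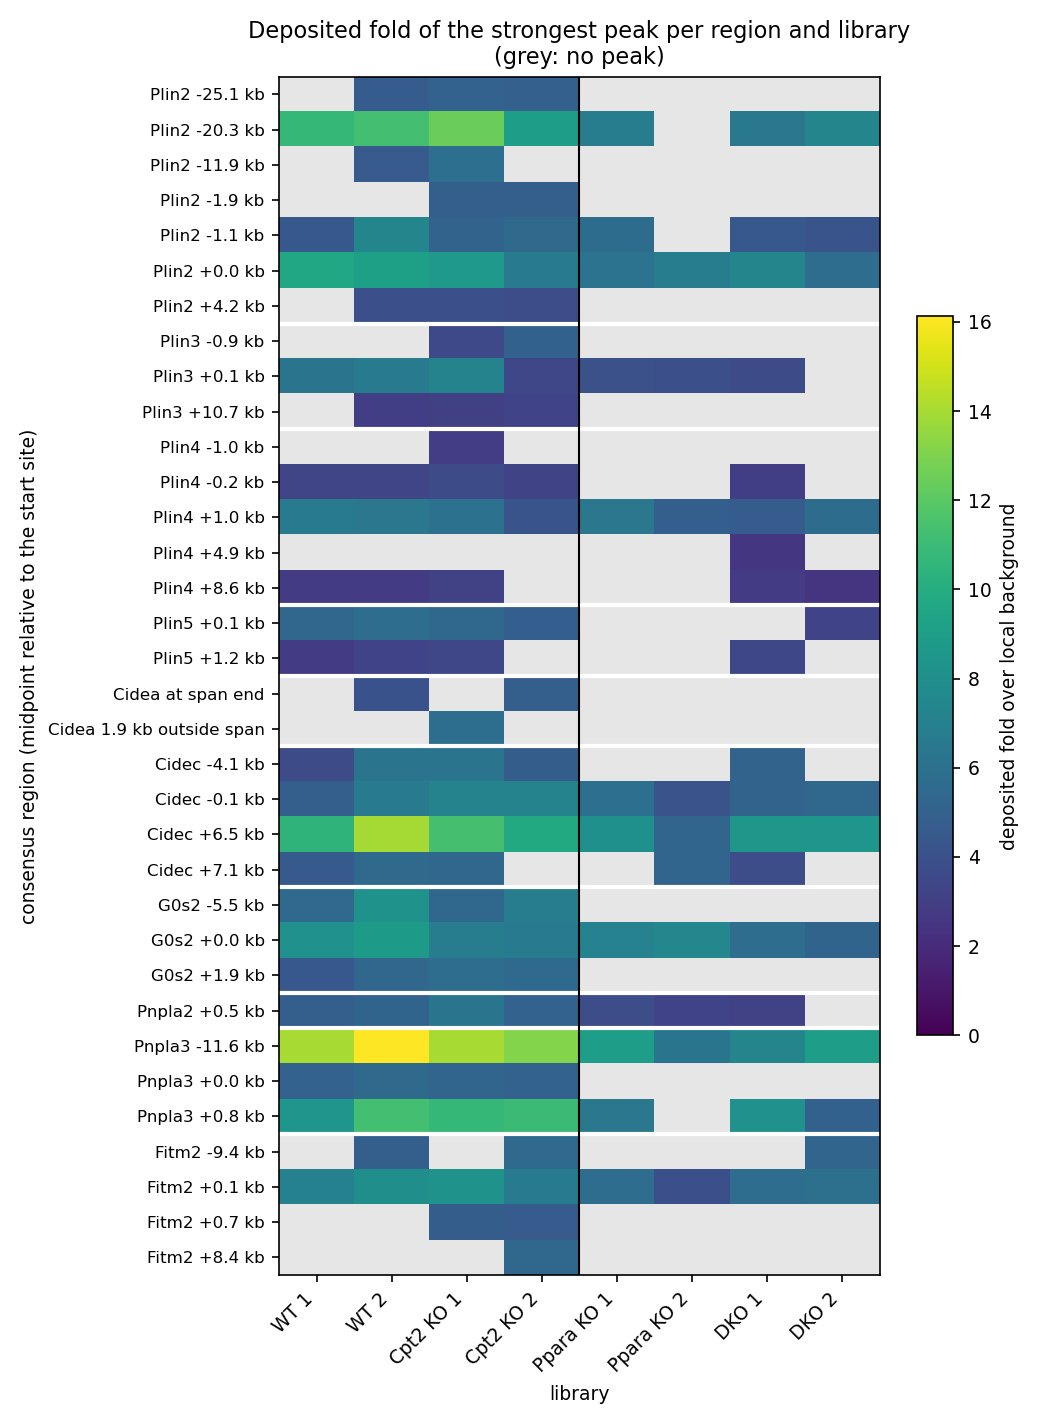
Deposited fold over local background of the strongest peak (colour) for each of the 34 regions (rows, by gene and kb from the start site) in each library (columns), with grey where no peak was called and a line between Ppara-intact and Ppara-null libraries. The 3 rows that are coloured in all 4 columns to the left of the line and in none to the right are the upstream and downstream regions of G0s2 and the start of Pnpla3.

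Among the droplet coat proteins, Plin2 encodes the perilipin that coats most droplets of the hepatocyte. Its 7 regions took 22 of 28 possible calls in Ppara-intact and 10 of 28 in Ppara-null libraries. Over all regions 69.4% and 38.9% of possible calls were made. The region over its start (chromosome 4, 86669790 to 86670282) was called in all 8 libraries. Its deposited fold, MACS2's ratio of the peak summit to the local background, was 9.58 and 9.19 in wild type, 8.64 and 6.56 in Cpt2 knockout, 6.16 and 6.75 in Ppara knockout, and 7.37 and 5.76 in double knockout. Cpt2 knockout 2 lay within the Ppara-null range, so the 2 sides overlapped. A distal region 20326 bp upstream (chromosome 4, 86690124 to 86690646) was the strongest of the gene in Ppara-intact libraries. It had a fold of 10.7 and 11.3 in wild type, 12.5 and 8.96 in Cpt2 knockout, 6.76 in Ppara knockout 1, 6.49 and 7.35 in double knockout, and no peak in Ppara knockout 2. Where it was called, every Ppara-intact fold exceeded every Ppara-null one, an order that 60.0% of the regions called in all 8 libraries had. The share at regions called in 7 libraries was not computed. The region 1067 bp upstream of the start was likewise called in all libraries except Ppara knockout 2. Its folds overlapped by Ppara status, at 4.41 to 7.41 with Ppara intact and 4.21 to 5.67 without. No Ppara-null library called the remaining 4 regions of Plin2, which Ppara-intact libraries called 2 or 3 times each. Of all regions, 42.3% were called in no Ppara-null library.

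Plin5 encodes a perilipin of oxidative tissues that links droplets to mitochondria, and its neighbour Plin4 encodes another perilipin. The region over both starts of Plin5 (chromosome 17, 56117105 to 56117729) had a fold of 5.33 and 5.77 in wild type, 5.45 and 4.85 in Cpt2 knockout and 3.25 in double knockout 2, with no peak in the other 3 Ppara-null libraries. In equal-number lists it was still called in 4 Ppara-intact and 1 Ppara-null libraries. The region over the start of Plin4 (chromosome 17, 56109738 to 56110152) had a fold of 3.37 and 3.35 in wild type, 3.66 and 3.34 in Cpt2 knockout and 3.02 in double knockout 1, and no peak in the rest. Within Plin4, 990 bp downstream of its start, a region (chromosome 17, 56108553 to 56109032) was called in all 8 libraries. Its fold there was 6.56 and 6.39 in wild type, 6.01 and 4.21 in Cpt2 knockout, 6.39 and 4.79 in Ppara knockout, and 4.68 and 5.72 in double knockout, so that genotypes overlapped. Its percentiles by −log10 p among the 11258 regions also overlapped, at 32.5 to 75.1 with Ppara intact and 71.1 to 91.9 without. Fisher's exact test gave an adjusted p of 0.547 by Ppara status for both start regions, Plin4 and Plin5. Each was called in 1 Ppara-null library, so leaving that library out necessarily separated it. This was double knockout 1 for Plin4 and double knockout 2 for Plin5, and 9.08% and 7.45% of all regions were then separated in that direction. Of the member regions, only one in Plin4 was called in no Ppara-intact library, and it was called in double knockout 1 alone (2.94% of the 34, against 5.43% of all regions called in no Ppara-intact library).

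Plin3 encodes a perilipin found in many cell types that binds small, new droplets. The region over its start (chromosome 17, 56290078 to 56290805) had a fold of 6.19 and 6.66 in wild type, 7.19 and 3.44 in Cpt2 knockout, 4.02 and 3.94 in Ppara knockout and 3.68 in double knockout 1, and no peak in double knockout 2. Cpt2 knockout 2 had the lowest of these 7 values, but its summit, at 56290267, lay apart from those of the other 6 (56290574 to 56290623), so its fold was taken at another place in the region. The other 2 regions of Plin3 were called in no Ppara-null library, as were 42.3% of all regions.

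The CIDE proteins enlarge droplets by passing triglyceride between droplets in contact. Cidec, which in liver is known as a gene of fatty livers, had 4 regions. They took 15 of 16 possible calls in Ppara-intact and 11 of 16 in Ppara-null libraries, against 69.4% and 38.9% over all regions. The region inside Cidec 6534 bp downstream of the downstream start (chromosome 6, 113427961 to 113428500) was called in all 8 libraries. The fold there was 10.5 and 13.9 in wild type, 11.4 and 9.78 in Cpt2 knockout, 8.1 and 5.26 in Ppara knockout, and 8.55 and 8.49 in double knockout, with no overlap between the sides. At 60.0% of the 11258 regions called in all libraries, folds likewise did not overlap with Ppara-intact higher, so this is the common pattern. The downstream start (chromosome 6, 113434625 to 113435060) was also called in all 8 libraries, with folds of 4.88 and 6.59 in wild type, 7.22 and 7.2 in Cpt2 knockout, 5.89 and 4.1 in Ppara knockout, and 5.12 and 5.42 in double knockout. Here wild type 1 lay below 3 of the 4 Ppara-null libraries. By contrast the upstream start of Cidec, at position 113435760, lay in no consensus region and was called in 0 of 8 libraries. Cidea, a CIDE gene best known from brown fat, had 2 regions. The one over an end of its span was called in wild type 2 and Cpt2 knockout 2, with folds of 4.08 and 4.9. The other was called in Cpt2 knockout 1 alone. No Ppara-null library had a peak at Cidea, and 42.3% of all regions likewise had none.

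**Figure D3:**
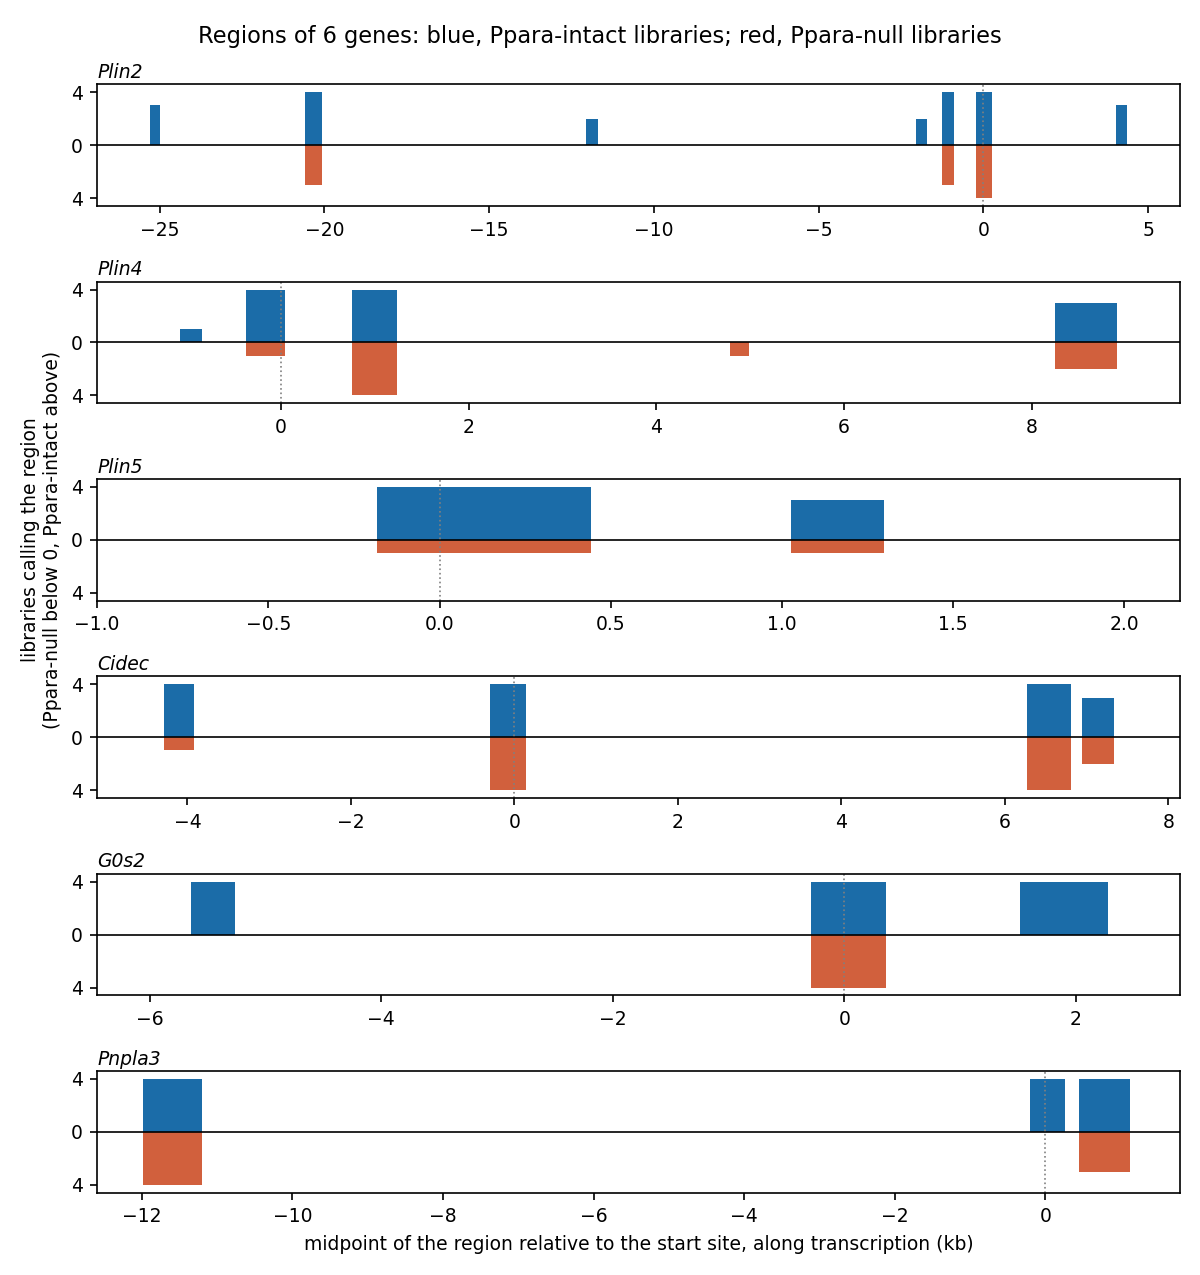
Number of Ppara-intact (blue, above 0) and Ppara-null (red, below 0) libraries calling each region of 6 genes, drawn at its width against kb from the start site (dotted line) along transcription. At G0s2 the regions on either side of the start have blue bars of 4 and no red bar, while the start itself has 4 and 4.

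G0s2 encodes a small protein that binds and inhibits adipose triglyceride lipase. Its region at the start (chromosome 1, 193272832 to 193273473) was called in all 8 libraries and its 2 flanking regions in the 4 Ppara-intact libraries alone. Downstream (chromosome 1, 193270910 to 193271675, 484 bp from the gene) the fold was 4.42 and 5.32 in wild type and 5.75 and 5.53 in Cpt2 knockout. Upstream (chromosome 1, 193278448 to 193278831, 5259 bp from the gene) it was 5.54 and 8.24 in wild type and 5.38 and 6.79 in Cpt2 knockout. By −log10 p these peaks reached 26.6 to 66.4 downstream and 19.6 to 43.6 upstream. At the 11258 regions called in all libraries the median −log10 p was 57.3 to 89.2 with Ppara intact and 25.1 to 33.8 without it, and the part of this genome-wide difference in the missing calls was not tested. In equal-number lists the downstream flank was called in 4 Ppara-intact and 0 Ppara-null libraries, but the upstream flank in 1 and 0.

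At the start of G0s2 the folds were ordered by Cpt2 status. Its fold was 8.16 and 8.78 in wild type, 6.81 and 6.73 in Cpt2 knockout, 7.14 and 7.47 in Ppara knockout, and 5.79 and 5.18 in double knockout. Every Cpt2-intact library (wild type, Ppara knockout) exceeded every Cpt2-null one (Cpt2 knockout, double knockout), and so necessarily within each Ppara status too. Among the 11258 regions called in all 8 libraries, 0.0355% showed this order of folds and 0.808% the opposite. Percentiles within those 11258 regions, which are the same regions in each library, gave the same order. By −log10 p they were 71 and 64.5 in wild type, 51.8 and 39.3 in Cpt2 knockout, 61.5 and 76.7 in Ppara knockout, and 28 and 19 in double knockout, and 1.55% of those regions showed this order and 1.49% the opposite. By fold the lowest Cpt2-intact percentile was 23.9, in wild type 2, and the highest Cpt2-null one was 22.1, in double knockout 1. The same order of percentiles by fold was found at 1.59% of those regions and the opposite at 1.29%. The −log10 p itself overlapped by Cpt2 status (0.0% of those regions had Cpt2-intact above, 0.675% below), with 80.5 and 108 in wild type, 91.5 and 61.7 in Cpt2 knockout, 34.4 and 38.1 in Ppara knockout, and 24.4 and 16.6 in double knockout. This comparison was chosen after its values were seen, and it was not tested.

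Pnpla2 encodes adipose triglyceride lipase itself. Its single region (chromosome 7, 141454989 to 141456350), over the start, had a fold of 4.86 and 5.21 in wild type, 6.26 and 5.08 in Cpt2 knockout, 3.84 and 3.24 in Ppara knockout and 3.1 in double knockout 1, with no peak in double knockout 2. Every Ppara-intact value exceeded every Ppara-null one. At regions called in all 8 libraries 60.0% had this order of folds, and the share at regions called in 7 was not computed. The summit in double knockout 1, at 141455473, lay apart from those of the other 6 libraries (141455795 to 141455974), so its fold was taken at another place, and wild type 1 and Ppara knockout 2 each split this 1362 bp region into 2 peaks.

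Pnpla3 encodes a lipid droplet protein of the same patatin family. Its start (chromosome 15, 84167616 to 84168080) was called only with Ppara intact, with folds of 5.1 and 5.57 in wild type and 5.27 and 5.1 in Cpt2 knockout. These peaks had a −log10 p of 19.9 to 29.4, and in equal-number lists no library called the region. The next region downstream (chromosome 15, 84168268 to 84168934) had folds of 8.48 and 11.3 in wild type, 10.8 and 11 in Cpt2 knockout, 6.39 in Ppara knockout 1, and 8.17 and 5.02 in double knockout, with no peak in Ppara knockout 2. A distal region 11593 bp upstream (chromosome 15, 84155836 to 84156610) was called in all 8 libraries. Its folds, the highest of the 34 regions in every library except Ppara knockout 2 and double knockout 1, were 14 and 16.1 in wild type, 14 and 13.1 in Cpt2 knockout, 9.02 and 6.28 in Ppara knockout, and 7.35 and 9.03 in double knockout. It was the only one of the 7 regions called everywhere whose percentiles by −log10 p among the 11258 did not overlap by Ppara status, with 72.6 to 82.7 against 22.9 to 65.5. That order was found at 5.77% of those regions and the opposite at 6.82%. By fold its percentiles overlapped, at 73.2 to 90 against 48.2 to 80, as did those of the other 6 regions (5.33% of all had Ppara-intact above and 6.68% below). Without wild type 1 or without Ppara knockout 2, the region inside Plin4 did not overlap either, with Ppara-null above (8.26% and 9.97% of the 11258 then had that order). Pnpla3 lies on the chromosome of the targeted gene, 1545388 bp from Ppara, and whether that bears on these values was not tested.

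**Figure D4:**
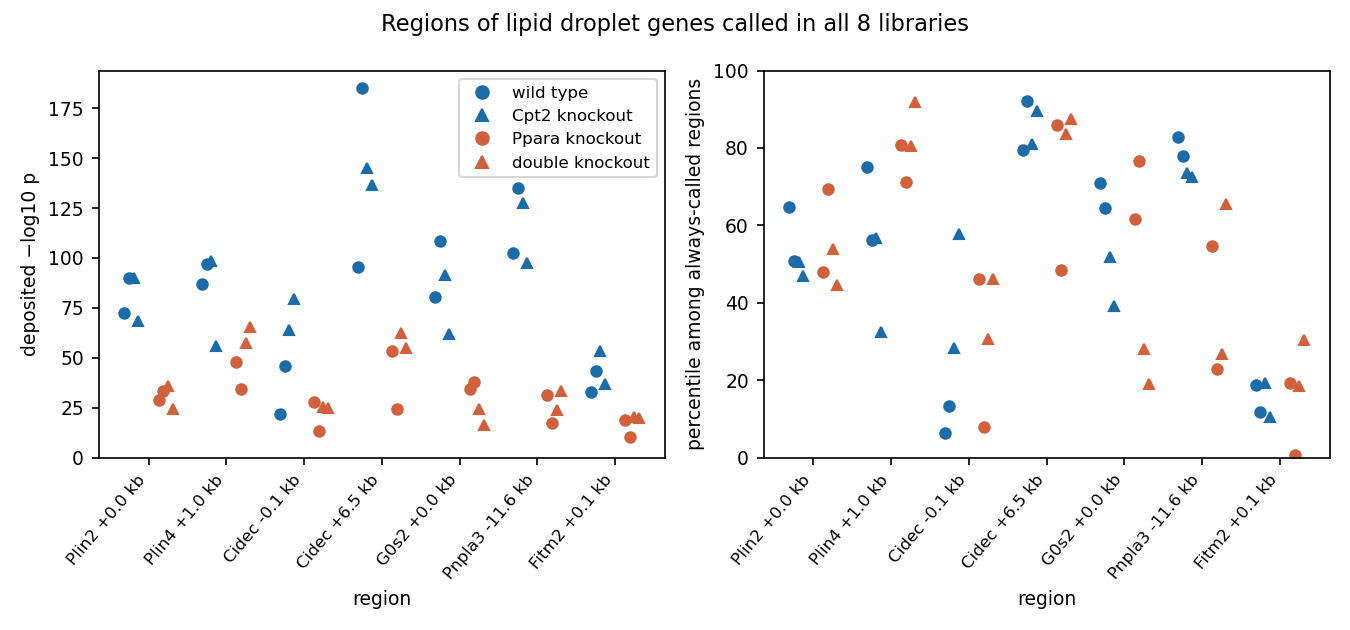
Deposited −log10 p (left) and its percentile among the 11258 regions called in all 8 libraries (right) for the 7 lipid droplet gene regions called in all libraries, 1 point per library. On the left Ppara-null points (red) lie below most Ppara-intact points (blue); on the right the colours overlap except at the distal region of Pnpla3, and the triangles of the Cpt2-null genotypes lie lowest at G0s2.

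Fitm2 encodes an endoplasmic reticulum protein that partitions triglyceride into new droplets. Its start (chromosome 2, 163472198 to 163472850) was called in all 8 libraries, with folds of 7.09 and 8.04 in wild type, 8.3 and 6.58 in Cpt2 knockout, 5.77 and 3.92 in Ppara knockout, and 5.75 and 5.98 in double knockout. Folds did not overlap by Ppara status, but its percentiles by fold did, at 12.1 to 22.9 against 3.96 to 36.8. The other 3 regions of Fitm2 were called in 1 to 3 libraries each.

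Over these 7 regions, folds were not overlapping and higher with Ppara intact at 3 (Cidec, Pnpla3 and Fitm2), and −log10 p at 5, against 60.0% and 76.4% of all regions called in 8 libraries. None of the 7 had the reverse order, which 0.222% of those regions had by fold and 0.329% by −log10 p.

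Loss of Ppara alone was read from Ppara knockout against wild type. Both wild type and neither Ppara knockout libraries called 8 of the 34 regions (23.5%, against 13.6% of all regions), and 0 showed the reverse (0.46% of all). The 8 were the 3 separated by Ppara status, 2 at Plin4, 2 at Plin5 and 1 upstream of Cidec. With both genes lost, double knockout against wild type gave 3 regions called only in wild type (8.82%, against 12.9%) and 0 the reverse (1.2% of all). The remaining 5 of the 8 were each called in at least 1 double knockout library, and one of them, in Plin4 (chromosome 17, 56100875 to 56101532), in both. These comparisons share the wild type libraries and the difference between them was not tested. Without wild type 1 the counts were 14 and 8 of 34 (29.8% and 29.6% of all regions). Without double knockout 1 the second was 9 (21.3% of all), and without double knockout 2 it was 4, with 1 region the other way (14.9% and 4.1% of all). In equal-number lists 2 regions were called only in wild type against Ppara knockout (8.33% of 24, against 5.69%), at G0s2 and Plin5, with 0 the other way (3.93% of all), and 3 against double knockout (12.5%, against 5.54%), at G0s2, Cidec and Pnpla2, with 1 the other way (4.17%, against 5.09%), in Plin4.

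With Cpt2 absent on both sides, double knockout was set against Cpt2 knockout. This gave 9 regions called only in Cpt2 knockout (26.5%, against 20.4% of all regions) and 0 the reverse (0.597% of all). Beside the 3 regions at G0s2 and Pnpla3 they comprised 3 at Plin2, 2 at Plin3 and 1 at Fitm2. In equal-number lists 2 were called only in Cpt2 knockout, at G0s2 and Pnpla2 (8.33% of 24, against 4.95%), and 1 only in double knockout, in Plin4 (4.17%, against 4.31%).

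Loss of Cpt2 alone, in Cpt2 knockout against wild type, gave 3 regions called only in Cpt2 knockout (8.82%, against 3.63% of all regions) and 0 only in wild type (0.512% of all). They lay 1879 bp upstream of Plin2 (chromosome 4, 86671778 to 86672098, folds of 4.89 and 4.88), 856 bp upstream of Plin3 (chromosome 17, 56291126 to 56291608, folds of 3.58 and 5.02) and 684 bp downstream of the start of Fitm2 (chromosome 2, 163471764 to 163472125, folds of 4.77 and 4.66). All 3 were absent from the Ppara-null libraries, double knockout included, as were 42.3% of all regions. The share absent there among all regions called only in Cpt2 knockout was not computed. Their mean percentiles in the 2 lists by −log10 p were 47.9, 39 and 27.4, and in equal-number lists 0 regions were separated in either direction (1.52% and 1.35% of all). Without wild type 2 there were 6 regions called only in Cpt2 knockout (12.0% of all regions) and without Cpt2 knockout 2 there were 5 (11.7% of all). Without Cpt2 knockout 1 there were 4 (9.83% of all) and also 3 called only in wild type (2.78% of all), and without wild type 1 there were 3 (5.0% of all).

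In the absence of Ppara, double knockout against Ppara knockout gave 1 region called only in double knockout (2.94%, against 2.33% of all regions) and 0 the reverse (1.45% of all). This was the region in Plin4 named above, with folds of 2.8 and 2.4 in double knockout and 2.88 and 2.83 in wild type. Without Ppara knockout 1 the count was 4 (6.2% of all regions) and without double knockout 2 it was 5 (8.48% of all). Without double knockout 1 it was 3, with 2 the other way (4.85% and 4.6% of all). In equal-number lists this region of Plin4 was again called only in double knockout (4.17% of 24, against 3.35%), and that of Pnpla2 only in Ppara knockout (4.17%, against 3.03%). By Cpt2 status over all 8 libraries, 0 of the 34 had peaks in every Cpt2-null and no Cpt2-intact library (0.0968% of all regions) and 0 the converse (0.00605%). In equal-number lists these counts were also 0 (0.0666% and 0.0899% of all). By Fisher's exact test 0 had an unadjusted p under 0.05, and 51 of all regions did. A comparison of 2 libraries with 2 allows no exact p below 0.333, so none was made.

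Other genes of droplets and triglyceride metabolism were taken from a list of 45, of which 44 were in the annotation and 43 had regions. Of their 222 regions, 20 (9.01%, against 6.82% of all regions) had the same pattern of presence with Ppara and absence without it, at 18 genes, and 0 showed the reverse. The highest ranked by −log10 p lay at 5 genes. They were inside Pnpla8, a mitochondrial and peroxisomal phospholipase (chromosome 12, 44274110 to 44274532, folds of 7.08 to 9.89), and 17774 bp from Gpam, which starts glycerolipid synthesis (chromosome 19, 55145094 to 55145491, 7.45 to 10.4). The others were 2121 bp from Ces1d, a carboxylesterase with triglyceride hydrolase activity (chromosome 8, 93163398 to 93163950, 5.97 to 11), 6579 bp from Gpat4 (chromosome 8, 23215033 to 23215518, 7.45 to 10), another acyltransferase of that step, and inside Lpin1, a phosphatidate phosphatase (chromosome 12, 16589490 to 16590253, 4.36 to 6.13). Each had the same Fisher's exact p of 0.0286 and adjusted p of 0.32 as the member regions. In equal-number lists 1 of 146 was called only in Ppara-intact and 1 only in Ppara-null libraries (0.685% each, against 1.34% and 0.846%). Of the 222 regions, 52 (23.4%) were called in all 8 libraries.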

How the data were processed

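ATAC-seq peak lists of 8 libraries were used. Per the peak names in the files, the authors called peaks per library with MACS2 on mm10; the submitters' processing notes name BWA and MACS2 2.1.0. Duplicate handling, the Tn5 offset and replicate merging are not given in the sources used here. Fold (a ratio) and −log10 p and −log10 q are the authors' deposited values per peak, and the deposited score was not used. The consensus regions, over all libraries, came from a further list deposited by the authors, which gives positions and no value per region. Read depth is not given, so peak numbers stand in for it. Because the files hold calls and no counts, no count model was fitted.

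Calls required an overlap of 1 bp or more between a peak and a region. For each region that varied, calls were compared by Ppara and by Cpt2 status with Fisher's exact test (two-sided) and Benjamini-Hochberg adjustment over all such regions. A region was separated when each library on one side called it and no library on the opposite side did. Fold and −log10 p came from the strongest overlapping peak. Alternatives were equal-number lists, a minimum −log10 q of 20, peaks that span 50% or more of the region, a 5 kb limit, ties left out, a replicate block, and omission of each library in turn. All members were named. Regions given in full were those separated by Ppara status, those called in all libraries and some of those separated in a pair of genotypes. For Plin3, Pnpla2 and Cidea, the region called in the most libraries was also described. For other genes the highest ranked were given. The distal region of Plin2, the region 1067 bp upstream of its start and the region next downstream of the start of Pnpla3 were described outside these rules. Members and lists were chosen with earlier results of these data known. At most 0.452% of peaks had identical positions in any 2 libraries. The code was tested on simulated data. Python 3.11.15, NumPy 2.4.6, SciPy 1.17.1, pandas 2.3.3 and matplotlib 3.10.9 were used; genes, start sites and sequences came from RefSeq tables on GRCm38.p6.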

Additional observations from a re-analysis of the deposited data

How the results depend on the processing

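Counts of separated regions are small and depend on list length. They were 3 by Ppara status, 3 for Cpt2 loss, 8 for Ppara loss, 3 for loss of both (each against wild type), and 9 and 1 for the double knockout against the Cpt2 and the Ppara knockout. In equal-number lists, which hold fewer peaks by construction, the counts were 1 by Ppara status, 0 for Cpt2 loss and 2 for Ppara loss. They were 3 and 2 for the double knockout against the Cpt2 and the Ppara knockout. The share of members called then differed by 9.56 points by Ppara status in place of 38.2. Over all regions the share called with and without Ppara was 36.4% and 35.7% in these lists, and 69.4% and 38.9% with all peaks. With a minimum −log10 q of 20, there were 5 by Ppara status (at G0s2, Plin4, Plin5, Fitm2 and Pnpla2). There were then 1 for Cpt2 loss, 6 for loss of both and 0 for the double against the Ppara knockout. The share of all regions separated at this cut was not computed, so these counts cannot be read as particular to the members. With all peaks, the start of Fitm2 was called in all 8 libraries. Median −log10 p at regions called everywhere was 25.1 to 33.8 in Ppara-null and 57.3 to 89.2 in Ppara-intact libraries. Its part in these counts was not tested. Percentiles by fold, an alternative chosen after seeing the data, left 0 of the 7 regions called everywhere without overlap, in place of 1. With 1 library left out, the ranges were 3 to 6 by Ppara status, 0 by Cpt2 status, 3 to 7 for Cpt2 loss, 8 to 14 for Ppara loss, 3 to 9 for loss of both, 11 to 13 and 1 to 5 for the double against the Cpt2 and the Ppara knockout, 34.6 to 43.4 points for the share, and 1 to 2 of the 7 regions. These counts take both directions together. Fewer libraries then have to be separated, and the shares of all regions rose too. In the direction with more members those shares were 7.22% to 11.8% by Ppara status and 5.0% to 12.0% for Cpt2 loss. They were 17.4% to 29.8% for Ppara loss and 14.9% to 29.6% for loss of both. For the double against the Cpt2 and the Ppara knockout they were 22.8% to 34.5% and 3.81% to 8.48%. With the replicate block the counts by Ppara and Cpt2 status were 3 and 0, and the smallest exact permutation p it allows was 0.0556, so 0 regions could pass. Libraries with the same replicate number did not deviate together (correlations of -0.0277 to 0.0467 over regions), so no pairing was seen. Whether the replicate number marks a shared batch was not tested. Read depth is unknown, so a region without a peak may lie just under a threshold.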
